A study of Homo sapiens with 6 samples.

Results

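The AP-1 and EGR immediate early factors described here are 10 genes, *FOS*, *FOSB*, *FOSL1*, *FOSL2*, *JUN*, *JUNB*, *JUND*, *EGR1*, *EGR3* and *IER2*, out of 58735 genes measured by RNA sequencing. They were taken by gene symbol, and each symbol matched 1 gene. They were chosen by family, with the log2 fold changes of these same libraries known, so the values below are a description of these libraries and carry no test. The TPC-1 line derives from a papillary carcinoma of the human thyroid. The comparison set 3 libraries of the wild strain against 3 libraries of *RRM2*-OE-TPC-1, the same line after infection with a lentivirus that expresses *RRM2* from a CMV promoter and selection with puromycin. *RRM2* encodes the small subunit of ribonucleotide reductase, the enzyme that makes deoxynucleotides for DNA synthesis. All cells were grown in RPMI medium with fetal bovine serum. No infection or selection of the wild strain is described, and libraries of an empty vector were not analysed here, so that infection, selection and *RRM2* cannot be told apart. Whether *RRM2*-OE-TPC-1 is a single clone is not stated.

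AP-1 is a dimer of a JUN protein (JUN, JUNB or JUND) with a FOS protein (FOS, FOSB, or the FOS-related FOSL1 and FOSL2, also called FRA1 and FRA2) or with another JUN protein, held together by a leucine zipper and bound to the sequence TGACTCA. EGR1 and EGR3 are zinc finger factors that bind GC-rich sites, and IER2 is a nuclear protein induced together with them. Many of these genes are transcribed within minutes of a growth signal, through the RAS and ERK pathway acting on the serum response factor SRF and its ETS partners, and their mRNAs are short-lived. In papillary thyroid carcinoma a kinase fusion or mutation often keeps this pathway active, and in many carcinoma lines *FOSL1* is the FOS gene expressed most.

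Depth and labels were examined first. Reads on genes numbered 14317091 to 17084067 per library, and mitochondrial genes took 4.29% to 5.89% of them. *RRM2* was at 9.17, 9.05 and 8.52 FPKM (fragments scaled to gene length and library depth) in TPC-1 and at 50.4, 47.5 and 47.2 FPKM in *RRM2*-OE-TPC-1, which matched the labels. Although its titles all name RRM2, the genotype field says RRM3 for *RRM2*-OE-TPC-1 replicate 2 and RRM4 for replicate 3. Among thyroid markers, *PAX8* and *FOXE1* were expressed, and *TG*, *TSHR*, *SLC5A5* and *NKX2-1* were at or near 0 in both groups. The summed level of 10 fibroblast, immune and endothelial markers was 1.69 to 2.02 FPKM in TPC-1 and 0.507 to 0.675 FPKM in *RRM2*-OE-TPC-1, with 5 to 7 of the 10 at 0 in a library. The gap lay mostly in *PECAM1* (mean 0.924 and 0.0588 FPKM) and *COL1A1* (0.816 and 0.501 FPKM). *VWF*, *CD68* and *PTPRC* were slightly higher in *RRM2*-OE-TPC-1, all near 0. The 6 epithelial markers summed to between 42.9 and 47.1 FPKM in TPC-1 and between 88.4 and 90.8 FPKM in *RRM2*-OE-TPC-1, mostly through *KRT18*, which rose (log2 fold change 1.05). The part of these markers in the values below was not tested. The methods call the libraries of each line biological replicates, without saying how the cultures were separated. No batch is given in the labels. In bulk RNA, fewer cells of a type and less RNA per cell cannot be told apart.

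Promoter sequence is shown for *EGR1* and *JUND*, since these were the 2 members past both thresholds of the comparison below. Each line gives the 250 bases before the RefSeq transcription start on GRCh38.p14, 5′ to 3′ along the gene's own strand, for *EGR1* chr5:138465229-138465478 on the plus strand and for *JUND* chr19:18281623-18281872 on the minus strand. Capitals mark every match of the motifs searched. In *EGR1* these are CArG boxes, the element bound by SRF, and in *JUND* they are TGACGTCA, the cyclic AMP response element, and GGGCGG or its complement CCGCCC, the box bound by SP1.
EGR1: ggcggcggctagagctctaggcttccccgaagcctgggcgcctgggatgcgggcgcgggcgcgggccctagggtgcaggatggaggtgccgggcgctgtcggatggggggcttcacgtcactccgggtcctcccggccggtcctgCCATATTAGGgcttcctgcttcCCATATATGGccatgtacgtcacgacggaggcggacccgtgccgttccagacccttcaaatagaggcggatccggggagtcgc
JUND: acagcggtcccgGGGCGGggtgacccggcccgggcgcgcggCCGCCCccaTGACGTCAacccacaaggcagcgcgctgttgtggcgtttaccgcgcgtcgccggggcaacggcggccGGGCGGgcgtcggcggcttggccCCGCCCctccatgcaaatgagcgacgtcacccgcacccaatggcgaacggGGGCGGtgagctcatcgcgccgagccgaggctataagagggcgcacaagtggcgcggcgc

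The *EGR1* window held 2 CArG boxes, at positions -105 to -96 and -83 to -74 before the start, and it was the only window among 8 members with such a match. A CArG box was found in 1.16% of all 35116 promoter windows of the RefSeq table, and *FOSL1* and *EGR3* had no entry there. The *JUND* window held TGACGTCA at -200 to -193, a motif found in 1.65% of all windows and in none of the other 7 members. GGGCGG was found in 42.6% of all windows and in 6 of the 8 members. The TATA box TATAAA, found in 10.7% of windows, stood upstream of *FOS*, *FOSB* and *JUNB*, and the ETS motif CCGGAAG, found in 8.52%, stood upstream of *IER2*. The AP-1 motif TGACTCA (4.20% of windows) and the EGR motif GCGTGGGCG (0.720%) were in none of the 8 windows. Both strands were searched, matches of different motifs did not share bases in these windows, and a match is only a match of letters. Sites farther upstream than 250 bases, or with other letters, were not searched, so a window without a match does not show that the gene lacks the site. The windows of *JUN* and *FOSL2* lie inside the genes as GENCODE 29 draws them, and so does the end of the *FOS* window.

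FPKM values are divided by gene length, which for these genes is the total of all annotated exonic bases. Levels set side by side between genes are therefore approximate, and GC content was not corrected in them. The 10 genes spanned a wide range of levels. In TPC-1, *FOSL1* (mean 91.3 FPKM), *JUND* (81.0), *FOSL2* (58.7) and *JUN* (51.0) were the most abundant. *JUNB* (13.2), *EGR1* (9.52) and *IER2* (8.38) came next, followed by *FOSB* (1.60), *FOS* (0.544) and *EGR3* (0.363). Neighbours in this order overlapped between libraries for *FOSL1* and *JUND* and for *FOS* and *EGR3*, and the other neighbours did not overlap. In *RRM2*-OE-TPC-1 the order was *FOSL1* (108), *JUN* (65.5), *FOSL2* (54.6), *JUND* (32.8), *JUNB* (11.3), *IER2* (5.85), *EGR1* (1.46), *FOSB* (1.31), *FOS* (0.374) and *EGR3* (0.0656). There the only overlapping neighbours were *EGR1* and *FOSB*. *JUND* stood below *JUN* in each library of *RRM2*-OE-TPC-1 and above it in each library of TPC-1.

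**Figure D1:**
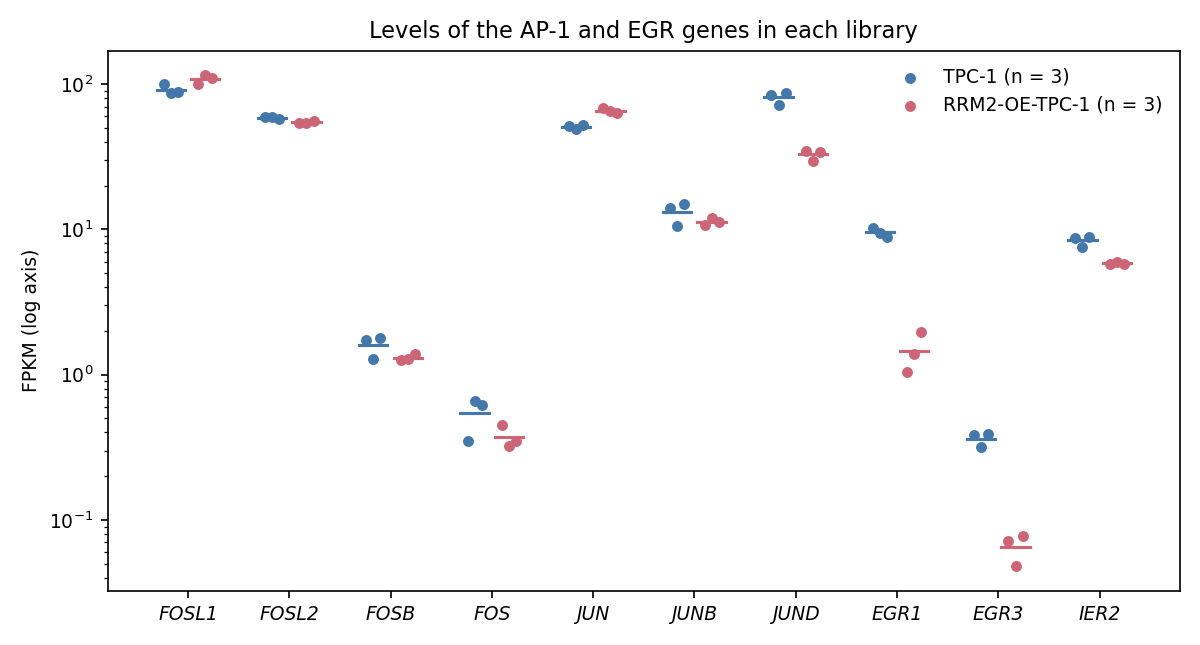
FPKM of the 10 genes (log axis) in each of 3 TPC-1 (blue) and 3 *RRM2*-OE-TPC-1 libraries (red), with points for libraries and lines for group means. *EGR1*, *EGR3* and *JUND* show the widest gaps between the groups, whereas the libraries of *FOS*, *FOSB* and *JUNB* overlap.

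Differences between the groups are given on the log2 scale of FPKM + 0.1, *RRM2*-OE-TPC-1 minus TPC-1, with the standard error of a limma fit over the 13621 genes that passed a minimum of 0.5 FPKM and 10 reads in 3 libraries. Of the 10 members, 8 passed this minimum, and *FOS* and *EGR3* did not. Past an adjusted p of 0.05 and an absolute log2 fold change of 1, 2 members were lower (*EGR1* and *JUND*) and 0 were higher. Over all tested genes 11.5% passed both thresholds, 6.97% lower and 4.48% higher. By the adjusted p alone 6 of the 8 passed, 4 lower and 2 higher, where 67.6% of all tested genes passed, 32.7% lower and 34.9% higher. The libraries of the groups did not overlap for 6 of the 8 tested members, where 72.2% of all tested genes did not overlap. The median log2 fold change of the 8 was -0.23, beside 0.01 over all tested genes.

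**Figure D2:**
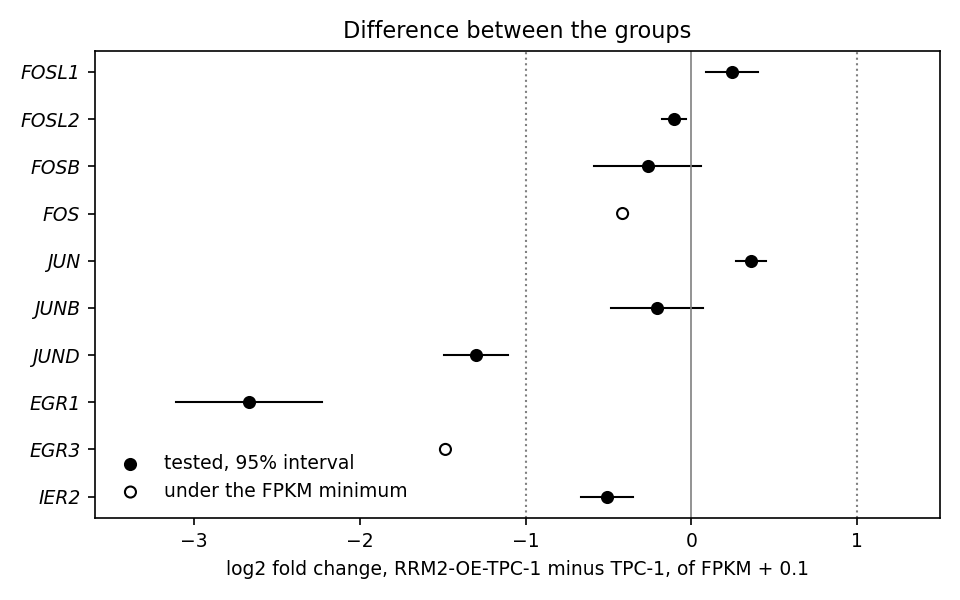
Log2 fold change of each gene (*RRM2*-OE-TPC-1 minus TPC-1, of FPKM + 0.1), with 95% intervals of the limma fit for the 8 tested genes and open circles for the 2 genes under the FPKM minimum, and with dotted lines at -1 and 1. *EGR1* (-2.67) and *JUND* (-1.30) lie beyond the lower line, and *JUN* (0.36) and *FOSL1* (0.25) lie above 0.

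The JUN genes differed in direction among themselves. *JUND*, the JUN gene that most cells express without stimulation, was at 84.0, 71.8 and 87.1 FPKM in TPC-1 and at 34.7, 29.7 and 34.1 FPKM in *RRM2*-OE-TPC-1. Each *RRM2*-OE-TPC-1 library lay far below the lowest TPC-1 library, and the mean was 2.47-fold lower (log2 fold change -1.30, SE 0.084). *JUND* is a single-exon gene at chr19:18279760-18281622 with a GC content of 69.7%, the highest of the 10. Among all tested genes of at least 65% GC the median log2 fold change was -0.16 and 14.6% were called lower, whereas the median was 0.05 between 40% and 45% GC. With GC content and gene length corrected the log2 fold change of *JUND* was -1.04. The same correction gave -2.65 for *EGR1*, -0.37 for *IER2*, 0.34 for *FOSL1* and 0.41 for *JUN*.

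*JUN*, the founding member of the family and a substrate of the JNK kinases, was at 51.6, 49.3 and 52.0 FPKM in TPC-1 and at 68.1, 65.2 and 63.3 FPKM in *RRM2*-OE-TPC-1. Its groups did not overlap, and the direction was opposite to that of *JUND* (log2 fold change 0.36, SE 0.039). *JUN* had the highest log2 fold change of the 8 tested members. *JUNB*, which often opposes JUN in growth control, was at 14.1, 10.6 and 14.9 FPKM in TPC-1 and at 10.7, 12.0 and 11.2 FPKM in *RRM2*-OE-TPC-1. TPC-1 replicate 2 lay below all 3 libraries of *RRM2*-OE-TPC-1, so that the groups overlapped. The log2 fold change of *JUNB* was -0.21 (SE 0.119), and leaving out TPC-1 replicate 2 gave -0.36, leaving out replicate 3 of that group gave -0.11, and it was -0.03 with GC content and gene length corrected. *JUNB* shares 259 exonic bases with *HOOK2* on the opposite strand (mean 2.84 FPKM). Whether strand was used in counting is not stated, so reads there cannot be told apart.

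Among the FOS genes, *FOSL1* was at 99.7, 86.4 and 87.8 FPKM in TPC-1 and at 100.4, 114.9 and 109.9 FPKM in *RRM2*-OE-TPC-1. The groups did not overlap, but TPC-1 replicate 1 and *RRM2*-OE-TPC-1 replicate 1 were nearly equal. Its log2 fold change was 0.25 (SE 0.068), and it was 0.16 with each library scaled to the same sum of FPKM. *FOSL2*, with the most annotated exonic bases of the 10 (7157), was at 59.2, 59.2 and 57.8 FPKM in TPC-1 and at 53.6, 54.3 and 56.0 FPKM in *RRM2*-OE-TPC-1. In TPC-1 these libraries were the closest together of all members. The small gap between the groups (log2 fold change -0.10, SE 0.032) moved with the scaling. It was -0.19 with each library scaled to the same sum of FPKM and -0.01 with GC content and gene length corrected.

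The 2 FOS genes best known for a fast serum response were low in both groups. *FOSB* was at 1.73, 1.29 and 1.80 FPKM in TPC-1 and at 1.26, 1.28 and 1.38 FPKM in *RRM2*-OE-TPC-1. TPC-1 replicate 2 lay among the *RRM2*-OE-TPC-1 libraries. The log2 fold change was -0.26 (SE 0.140), and it was -0.41 without TPC-1 replicate 2 and -0.16 with GC content and gene length corrected. *FOS* was at 0.352, 0.661 and 0.620 FPKM in TPC-1 and at 0.449, 0.325 and 0.349 FPKM in *RRM2*-OE-TPC-1. These values rest on 19, 36 and 32 reads in TPC-1 and 21, 18 and 18 reads in *RRM2*-OE-TPC-1, and the groups overlapped. *RRM2*-OE-TPC-1 replicate 1 lay above TPC-1 replicate 1. Since *FOS* did not pass the minimum, its difference was not tested.

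The make-up of the 7 FOS and JUN genes was compared as shares of their summed FPKM, without the GC content and gene length correction. In TPC-1 the sum was 297 FPKM ± 16.3 (SD, n = 3), whereas *RRM2*-OE-TPC-1 summed to 274 FPKM ± 4.53 (SD, n = 3). The share of *JUND* was 27.0%, 25.7% and 28.8% in the TPC-1 libraries and 12.9%, 10.7% and 12.3% in the *RRM2*-OE-TPC-1 libraries. *FOSL1* made up 30.7% ± 1.53 (SD, n = 3) of the TPC-1 sum, whereas its share after *RRM2* overexpression was 39.5% ± 2.06 (SD, n = 3). The corresponding shares of *JUN* were 17.2% ± 0.531 and 23.9% ± 1.24 (SD, n = 3 each). The shares of *FOSL2* were 19.8% and 19.9%. *FOS* and *FOSB* together stayed below 1% in every library. The JUN genes summed to 0.930, 0.892 and 1.04 times the FOS genes in TPC-1 and to 0.729, 0.626 and 0.648 times the FOS genes in *RRM2*-OE-TPC-1. Shares of mRNA are not shares of protein or of dimers, which were not measured here.

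**Figure D3:**
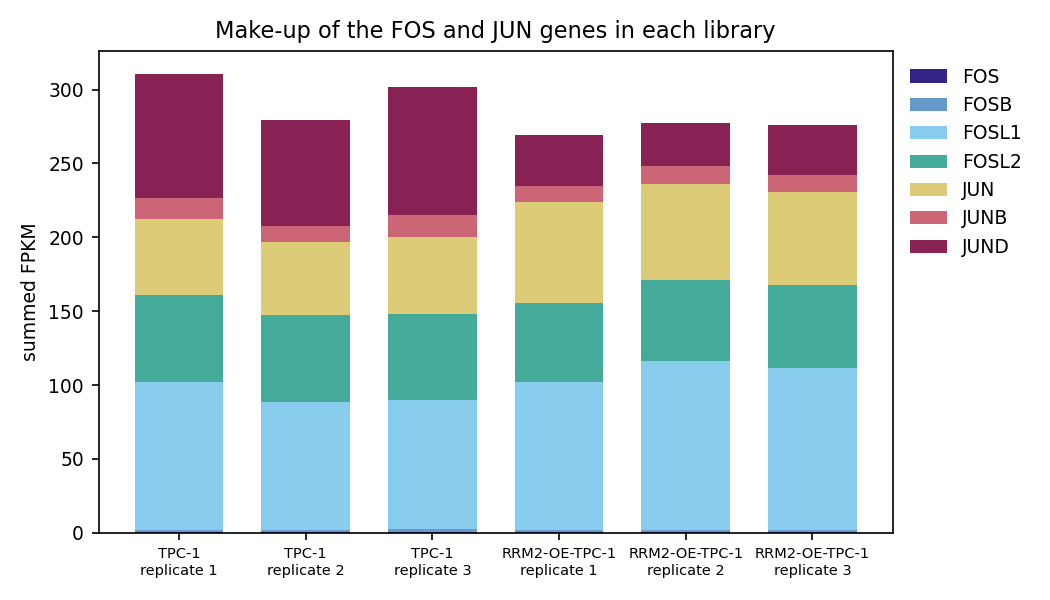
Summed FPKM of the 4 FOS and 3 JUN genes in each library, stacked by gene. The *JUND* segment is smaller in the 3 *RRM2*-OE-TPC-1 libraries (10.7% to 12.9% of the sum) than in the 3 TPC-1 libraries (25.7% to 28.8%), and *FOSL1* is the largest segment in each library.

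Both EGR genes were lower in *RRM2*-OE-TPC-1. *EGR1*, which carries serum and stress signals to growth factor and matrix genes, was at 10.2, 9.42 and 8.92 FPKM in TPC-1 and at 1.04, 1.38 and 1.96 FPKM in *RRM2*-OE-TPC-1. The highest *RRM2*-OE-TPC-1 library lay well below the lowest TPC-1 library, and the mean was 6.53-fold lower. Its log2 fold change, -2.67 (SE 0.191), was the lowest of the 8 tested members and was -2.89 to -2.46 when single libraries were left out. The *RRM2*-OE-TPC-1 libraries were unequal, with 47, 74 and 98 reads, and their SD on the log2 scale was 0.43, beside a median of 0.08 over all tested genes. *EGR3*, a related factor that EGR1 can share sites with, was at 0.383, 0.318 and 0.388 FPKM in TPC-1 and at 0.0713, 0.0481 and 0.0776 FPKM in *RRM2*-OE-TPC-1. It rests on 31, 26 and 30 reads against 5, 4 and 6 reads, the groups did not overlap, and its mean was 5.53-fold lower. On the scale of FPKM + 0.1, which understates the change of so low a gene, its log2 fold change was -1.48.

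*IER2* was at 8.72, 7.55 and 8.89 FPKM in TPC-1 and at 5.79, 5.95 and 5.80 FPKM in *RRM2*-OE-TPC-1. The groups did not overlap, and the *RRM2*-OE-TPC-1 libraries lay close together (log2 fold change -0.51, SE 0.069). The gene shares 946 exonic bases with an antisense gene that was listed at 0. TPC-1 replicate 2 was the lowest of its group for 7 of the 10 members, and *RRM2*-OE-TPC-1 replicate 1 was the lowest of its group for 6. Of the 10 members, 4 lie on chromosome 19 (*FOSB*, *IER2*, *JUNB* and *JUND*).

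The genes whose pattern over the 6 libraries was most like that of *JUN* and *EGR1*, the members with the highest and lowest log2 fold change, were sought among 10540 protein-coding genes by the root mean square difference of log2 values centred on each gene's mean. For *JUN* these were *MTMR2* (0.0152), *SRSF3* (0.0177) and *COL4A1* (0.0182). For *EGR1* they were *PPP1R1A* (0.177), *CA12* (0.201) and *CES4A* (0.219). The distance takes in both the difference between the groups and the spread within them. Within *RRM2*-OE-TPC-1 the SD on the log2 scale was 0.43 for *EGR1* and 0.05 for *JUN*. The distances of the 2 genes are therefore not comparable.

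The other genes of the pathway were counted with the same limma fit, with p-values adjusted by Benjamini-Hochberg over all 13621 tested genes. Over 12 lists together, heat shock genes left out, 108 of 128 genes were tested, 17 rose and 6 fell past both thresholds, and the median log2 fold change was -0.03. Over all tested genes 4.48% rose and 6.97% fell past both thresholds. By the adjusted p alone 34.9% rose and 32.7% fell. The same shares stand beside each list count below. The families closest to the members gave no call. Of 15 AP-1 related bZIP factors, which can pair with FOS or JUN proteins, 10 were tested and 0 passed both thresholds, and 1 rose and 3 fell by the adjusted p alone (limma). *ATF3*, a stress-induced partner of JUN, was at 5.68 FPKM in TPC-1 and 5.34 FPKM in *RRM2*-OE-TPC-1 (log2 fold change -0.09, limma adjusted p = 0.165). The EGR corepressors *NAB1* and *NAB2* had log2 fold changes of -0.37 and -0.63, both past the adjusted p but short of the fold threshold. *EGR2* was at 0.0829 FPKM in TPC-1 and 0.0506 FPKM in *RRM2*-OE-TPC-1 and was not tested, and *EGR4* was listed at 0 in all 6 libraries.

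The file gives a bZIP entry to further genes beside the members and these AP-1 related factors, a list taken after the file had been seen. Of these 23 were tested, and 20 had a lower mean log2 value in *RRM2*-OE-TPC-1, where 6700 of all 13621 tested genes did. By the adjusted p alone 3 rose and 19 fell, beside 34.9% and 32.7% of all tested genes (limma). Past both thresholds 4 fell and 0 rose, beside 6.97% and 4.48% of all tested genes, and the median log2 fold change was -0.33. The 4 are *NFE2* (-3.80), *DDIT3* (-1.85), *DBP* (-1.80) and *NFIL3* (-1.48), named here after their values were seen.

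The regulators upstream came next. Among 7 SRF, TCF and CREB regulators 0 passed both thresholds, although 4 fell by the adjusted p alone, and the log2 fold change of *SRF* was 0.11 (limma adjusted p = 0.0656). Of 20 tested RAS, ERK, JNK and p38 kinase genes, *HRAS* (1.22) and *RPS6KA4* (1.22), which encodes the kinase MSK2, rose on the log2 scale. *RPS6KA2* (-1.51), which encodes a ribosomal S6 kinase, and *MAPK3* (-1.04), which encodes ERK1, fell. *MAPK3* lay just past the fold threshold and lost its call when TPC-1 replicate 1 was left out (-0.995), with a pseudocount of 1 (-0.99) and with GC content and gene length corrected (-0.90). None of the 7 AU-rich element binding protein genes and none of the 3 tested JUN ubiquitin ligase genes passed both thresholds. By the adjusted p alone 6 and 3 of them passed, where 67.6% of all tested genes did.

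Other immediate early genes moved in both directions. Of 15 tested immediate early transcription factors, *ID3* (log2 fold change 3.79) and *KLF2* (1.60) rose and *ID2* (-1.34) fell. *MYC* (-0.78), *KLF4* (-0.53) and *NR4A1* (-0.35) were past the adjusted p but short of the fold threshold. Of 22 tested feedback genes, *BTG2* (2.91), *SGK1* (2.47), *DUSP2* (1.31) and *IER5* (1.28) rose and *PHLDA1* (-1.002) fell. *DUSP2* was low, at 18 reads summed over the TPC-1 libraries and 54 over those of *RRM2*-OE-TPC-1, and lost its call with a pseudocount of 1 (0.42). *SGK1* was at 0.189 and 1.50 FPKM, and the same pseudocount gave 1.07. *DUSP2* and *SGK1* passed the FPKM minimum through the *RRM2*-OE-TPC-1 libraries alone. *PHLDA1* lay at the fold threshold and lost its call at -0.98 when TPC-1 replicate 3 or *RRM2*-OE-TPC-1 replicate 2 was left out, at -0.97 with a pseudocount of 1 and at -0.96 with GC content and gene length corrected. *IER3* had a log2 fold change of -0.72. The ERK phosphatase gene *DUSP6* was at 3.77 and 4.22 FPKM (log2 fold change 0.16, limma adjusted p = 0.0603), and *DUSP1* had a log2 fold change of 0.42. *ZFP36*, whose protein destabilizes AU-rich mRNAs, had a log2 fold change of 0.10 (limma adjusted p = 0.272). Of 10 tested secreted and surface genes, *HBEGF* (2.00), *PLAUR* (1.50) and *IL6* (1.26) rose and *CXCL2* (-1.55) fell. Of 10 ERK output genes, *EPHA4* (1.37) and *CCND1* (1.29) rose and *PHLDA1* fell.

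**Figure D4:**
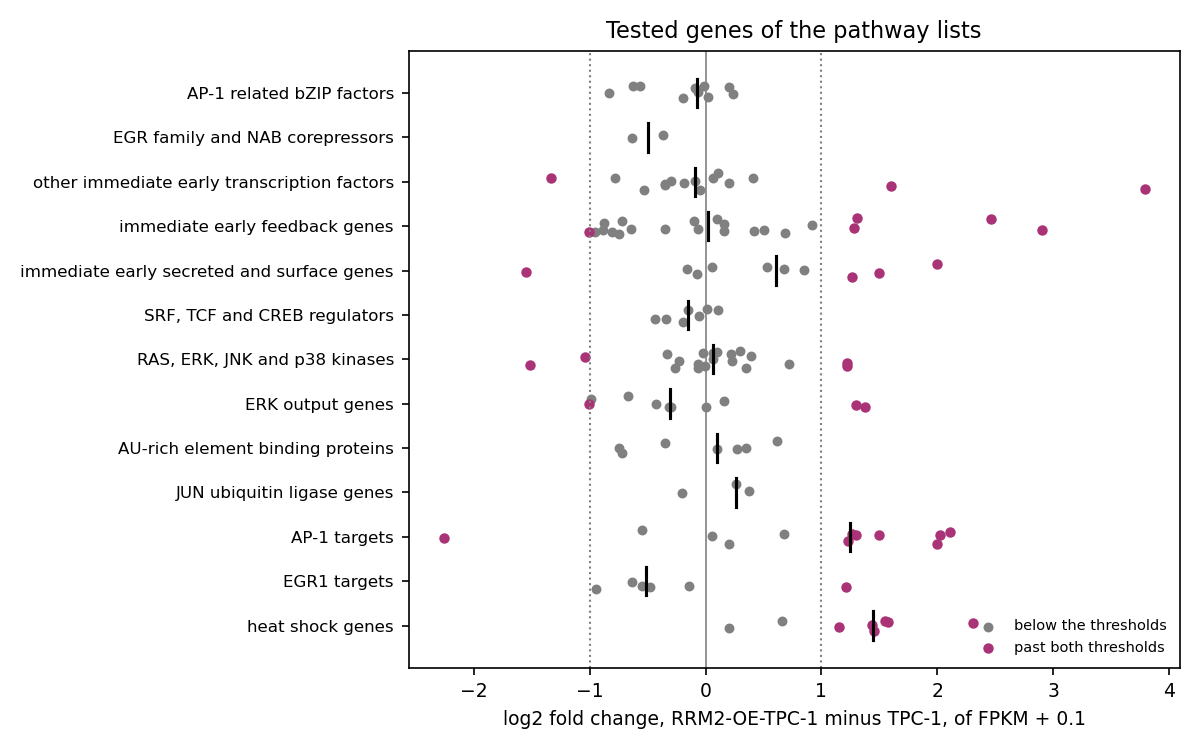
Log2 fold change (*RRM2*-OE-TPC-1 minus TPC-1, of FPKM + 0.1) of each tested gene of the 13 lists, with genes past both thresholds in purple, list medians as black bars and dotted lines at -1 and 1. The list medians run from -0.52 for the EGR1 targets to 1.45 for the heat shock genes, with 1.25 for the AP-1 targets.

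Textbook targets of the factors were counted last. These lists share genes with each other and with the lists above, so their counts are not separate. Among the AP-1 targets that rose, *HBEGF*, *PLAUR*, *IL6* and *CCND1* were already counted above. *NAB2* is also an EGR1 target, and *TGFB1* is in both target lists. Of 16 AP-1 target genes, 12 were tested. Past both thresholds 7 rose and 1 fell, beside 4.48% and 6.97% of all tested genes, and the median log2 fold change was 1.25. Among those that rose were *MMP1*, which encodes a collagenase (2.11), and *HBEGF*, which encodes an EGF receptor ligand (2.00). *VEGFA*, which encodes an angiogenic growth factor, fell (-2.26). *MMP1* was low, at 0.229 FPKM in TPC-1 and 1.22 FPKM in *RRM2*-OE-TPC-1, and with a pseudocount of 1 its log2 fold change was 0.86. Of 6 EGR1 target genes, *F3*, the gene of tissue factor, rose (1.21, but 0.91 and no call with a pseudocount of 1), 0 fell past both thresholds, and 4 fell by the adjusted p alone, with a median log2 fold change of -0.52. Whether AP-1 or EGR1 acted on any of these genes was not measured. Heat shock genes moved with the same contrast, with 8 of 8 tested higher and 6 of them called (*HSP90AA1* at 2.31), where 4.48% of all tested genes were called higher. The part of the heat shock genes in the differences of the members was not tested.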

How the data were processed

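mRNA of 3 TPC-1 and 3 *RRM2*-OE-TPC-1 libraries was analysed. The authors deposited FPKM values, and per the labels the tools were HISAT2 2.0.5, featureCounts 1.5.0 and DESeq2 1.20.0 on GRCh38.p14. Reads recovered from FPKM and gene length were whole for 100% of values (tolerance 0.01). All 58735 identifiers and positions equal GENCODE 29. Library preparation is described as poly(A) selection in the methods but as ribosomal RNA depletion with RNase R in the labels.

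Log2(FPKM + 0.1) was fitted with limma 3.58.1 (lmFit and eBayes with trend) in R 4.3.3, with Benjamini-Hochberg adjustment, over genes with 0.5 FPKM and 10 reads in 3 libraries. The fit was tested on simulated data. Tables and plots were made in Python 3.11.15 (pandas 2.3.3, numpy 2.4.6, matplotlib 3.10.9). Replicates differed by more than sampling noise (chi-square over degrees of freedom 1.81 to 5.68 per pair over genes with 20 reads). The ratio was 2.92 to 3.08 among the TPC-1 pairs. In *RRM2*-OE-TPC-1 it was 1.81 for replicates 2 and 3, whereas replicate 1 gave 5.02 with replicate 2 and 5.68 with replicate 3.

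The members and lists were chosen with earlier results of these data known. Named are all members, *RRM2*, 13 immediate early and related genes, up to 4 called genes per list with the largest change, and the 3 genes nearest to 2 members. Some genes that this rule covers are not reported here. Alternatives were other pseudocounts, filters, scalings and calling rules, voom, a replicate block and leaving out each library. The GC content and gene length correction was added after seeing the data.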

Additional observations from a re-analysis of the deposited data

How the results depend on the processing

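The direction of each tested member was the same under the 15 alternatives that give a fold change, of which 3 (no filter, an FPKM minimum of 1 and the replicate block) leave it equal by construction, and *EGR1* ranged from -2.89 to -2.11 and *JUND* from -1.38 to -1.04 on the log2 scale. Of the tested genes, 1560 were called, and the number was 716 with a pseudocount of 1, 618 with a test of a change above 1 and 9207 with the adjusted p alone. In the pathway and heat shock lists 29 genes were called, and the number was 19 with a test of a change above 1 and 88 with the adjusted p alone. Of the members 2 passed, and the number was 1 (*EGR1*) with a test of a change above 1 and 6 with the adjusted p alone, and 3 with no filter on low values, where *EGR3* was added. These calling rules and the pseudocount change the numbers by construction. With replicate number as a block, 1566 genes were called, 29 in the lists and 2 members. Deviations of same-numbered libraries from their group means correlated at -0.0849, -0.00781 and -0.105 over 7181 genes. Those of differently numbered libraries correlated at -0.0934 to 0.167. With 3 libraries per group, values of this size cannot decide whether the numbers pair the samples. *FOS* and *EGR3* rest on few reads and did not pass the minimum of the main fit. With 3 against 3 libraries an exact two-sided permutation p cannot fall below 0.1.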
